A study of Mus musculus with 28 samples.

Results

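The genes described here are 6 genes of growth plate hypertrophy: Col10a1, Ihh, Pth1r, Pthlh, Mef2c and Panx3. They were taken by symbol from a count table of 54429 identifiers, and all 6 were found. Their counts were read in 28 RNA-seq libraries of O9-1, a mouse cranial neural crest cell line that can be grown as a multipotent culture or differentiated. Every library therefore comes from 1 cell line. Cultures of 4 kinds were kept in either 21% or 0.5% O2, here called normoxic and hypoxic, with 4 libraries in each normoxic group and 3 in each hypoxic group. Proliferating cells were grown in medium conditioned by STO feeder cells with 15% fetal calf serum, 25 ng/ml bFGF and 5 ng/ml LIF. Osteoblast cultures spent 10 days in 10% serum with 10 mM beta-glycerophosphate, 0.1 µM dexamethasone and 100 ng/ml BMP-2. Chondrocyte cultures had 3 days of that osteogenic medium and then 7 days as micromass on matrigel, with 5% serum, insulin-transferrin-selenium, 0.1 µM dexamethasone, 10 ng/ml TGF-beta3 and 50 ng/ml BMP-2. Smooth muscle cultures spent 3 days in DMEM with 10% serum. Both skeletal media held BMP-2 and dexamethasone, less serum than the proliferating medium, and no listed bFGF or LIF. A comparison with proliferating cells covers all the differences between the media together with the time in culture. For chondrocyte cultures it also covers TGF-beta3 and micromass on matrigel. The labels do not say whether replicates were separate cultures, so p-values measure only the spread between these libraries, which may be technical.

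In the growth plate, chondrocytes divide, enlarge (hypertrophy) and are then replaced by bone. Prehypertrophic cells secrete Indian hedgehog (Ihh), which induces parathyroid hormone-related protein (PTHrP, the product of Pthlh). PTHrP acts through its receptor Pth1r to hold back hypertrophy, while the transcription factor Mef2c promotes it. Hypertrophic cells deposit type X collagen, encoded by Col10a1, and carry the channel protein pannexin 3, encoded by Panx3, which is also found in osteoblasts. Cranial neural crest gives rise to much of the facial skeleton, including cartilage that is later turned to bone.

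On mm10 (GENCODE M21 annotation) the genes lie at chr10:34389981-34397085 (Col10a1, plus strand), chr1:74945315-74951672 (Ihh, minus), chr9:110722085-110747145 (Pth1r, minus), chr6:147252101-147264183 (Pthlh, minus), chr13:83504034-83667080 (Mef2c, plus) and chr9:37659902-37669235 (Panx3, minus). RefSeq promoter entries on GRCm38.p6 were found for 5 of the 6 genes, 9 entries in all. The 250 bases before the start are printed for 3 genes, 5′ to 3′ on the gene's strand. They are shown because Col10a1 and Pth1r were nearly silent in proliferating cells and high in chondrocyte cultures, whereas Pthlh had the opposite pattern. Capitals mark a TATA box (TATAAA).
Col10a1, chr10:34389731-34389980, plus strand: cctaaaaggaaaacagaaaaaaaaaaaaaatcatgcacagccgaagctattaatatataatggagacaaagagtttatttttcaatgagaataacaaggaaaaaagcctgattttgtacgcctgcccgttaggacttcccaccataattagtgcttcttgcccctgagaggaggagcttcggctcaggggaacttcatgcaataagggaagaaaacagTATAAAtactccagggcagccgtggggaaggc
Pth1r, chr9:110747146-110747395, minus strand: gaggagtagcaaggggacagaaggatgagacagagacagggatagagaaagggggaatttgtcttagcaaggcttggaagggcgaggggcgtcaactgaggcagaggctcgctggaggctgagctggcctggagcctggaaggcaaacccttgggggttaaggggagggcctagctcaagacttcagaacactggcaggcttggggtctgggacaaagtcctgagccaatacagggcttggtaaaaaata
Pthlh, chr6:147264014-147264263, minus strand: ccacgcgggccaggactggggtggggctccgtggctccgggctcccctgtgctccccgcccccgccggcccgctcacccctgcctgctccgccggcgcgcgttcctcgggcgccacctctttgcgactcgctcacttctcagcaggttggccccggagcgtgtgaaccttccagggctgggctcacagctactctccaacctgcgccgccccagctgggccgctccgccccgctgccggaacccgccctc
The Col10a1 window had a GC content of 41.6% and a TATA box starting 32 bases before the start. GC content was 56.0% for the printed Pth1r entry and 75.2% for Pthlh, against a median of 52.4% (quartiles 45.2% and 61.2%) over 32851 promoter windows of this length. The printed Pth1r entry is the most upstream, and the gene's other entries had 65.6% and 70.4%. Which start these cultures used was not tested. The letters TATAAA, on either strand, occur in 12.4% of all windows. Among the 9 entries they also occurred in 2 of the Mef2c entries, in reverse orientation. Searches on both strands for TGTGGT (RUNX core, in 14.0% of all windows), ACGTG (hypoxia response core, 16.6%), TGACTCA (AP-1, 4.46%) and GGGTGGTC (GLI, 0.703%) matched none of the 9 entries.

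Libraries held 19.9 M to 64.7 M counts (M, 1000000). Levels below are CPM (counts per 1000000) after TMM scaling, edgeR's correction for library composition. TMM factors were 0.505 to 0.533 in the 3 hypoxic smooth muscle libraries and 0.901 to 1.29 in the other 25, so every direction in hypoxic smooth muscle is also given by library size alone where it flips. A list of 7 smooth muscle markers summed to 3579 to 4043 CPM in normoxic smooth muscle cultures but 95.0 to 119 CPM in hypoxic ones. Proliferating cells held 94.3 to 103 CPM in normoxia and 191 to 195 CPM in hypoxia. The list did not set normoxic smooth muscle apart, with 3652 to 5177 CPM in normoxic osteoblast and 2077 to 2535 CPM in normoxic chondrocyte cultures. The 18 cartilage matrix genes summed to 32.9 to 44.2 CPM in hypoxic smooth muscle cultures against 1045 to 1227 CPM in normoxic ones. The cultures labelled hypoxic smooth muscle are therefore named by that label only. Their 6 blood and macrophage markers summed to 318 to 489 CPM, against 1.02 to 1.61 CPM in normoxic smooth muscle, carried by Cx3cr1 and Cd68, with Adgre1 and Tyrobp at 0. Normoxic and hypoxic chondrocyte cultures held cartilage genes at 7636 to 15742 CPM and 5551 to 5890 CPM. Their sum of the 10 osteoblast markers was also above that of the osteoblast cultures (36104 to 50434 CPM against 5755 to 11031 CPM). Such a sum mostly follows its most abundant genes. Gene by gene, 7 of 9 tested markers were higher and 1 lower in chondrocyte than in osteoblast cultures in normoxia (59.7% of all genes called). In hypoxia 4 of 8 were higher and 2 lower (57.6%). The bone matrix sialoprotein gene Ibsp was at a mean of 1173 CPM in the chondrocyte and 1.13 CPM in the osteoblast cultures of 21% O2. Ibsp was higher in hypoxic osteoblast cultures, as given below. The 6 neuron markers summed to 81.6 to 134 CPM in chondrocyte cultures, carried by Tubb3 and Stmn2, and to at most 17.1 CPM elsewhere. The part of these markers in the results was not tested. In these bulk libraries, fewer cells of a type and less RNA per cell cannot be told apart.

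**Figure D1:**
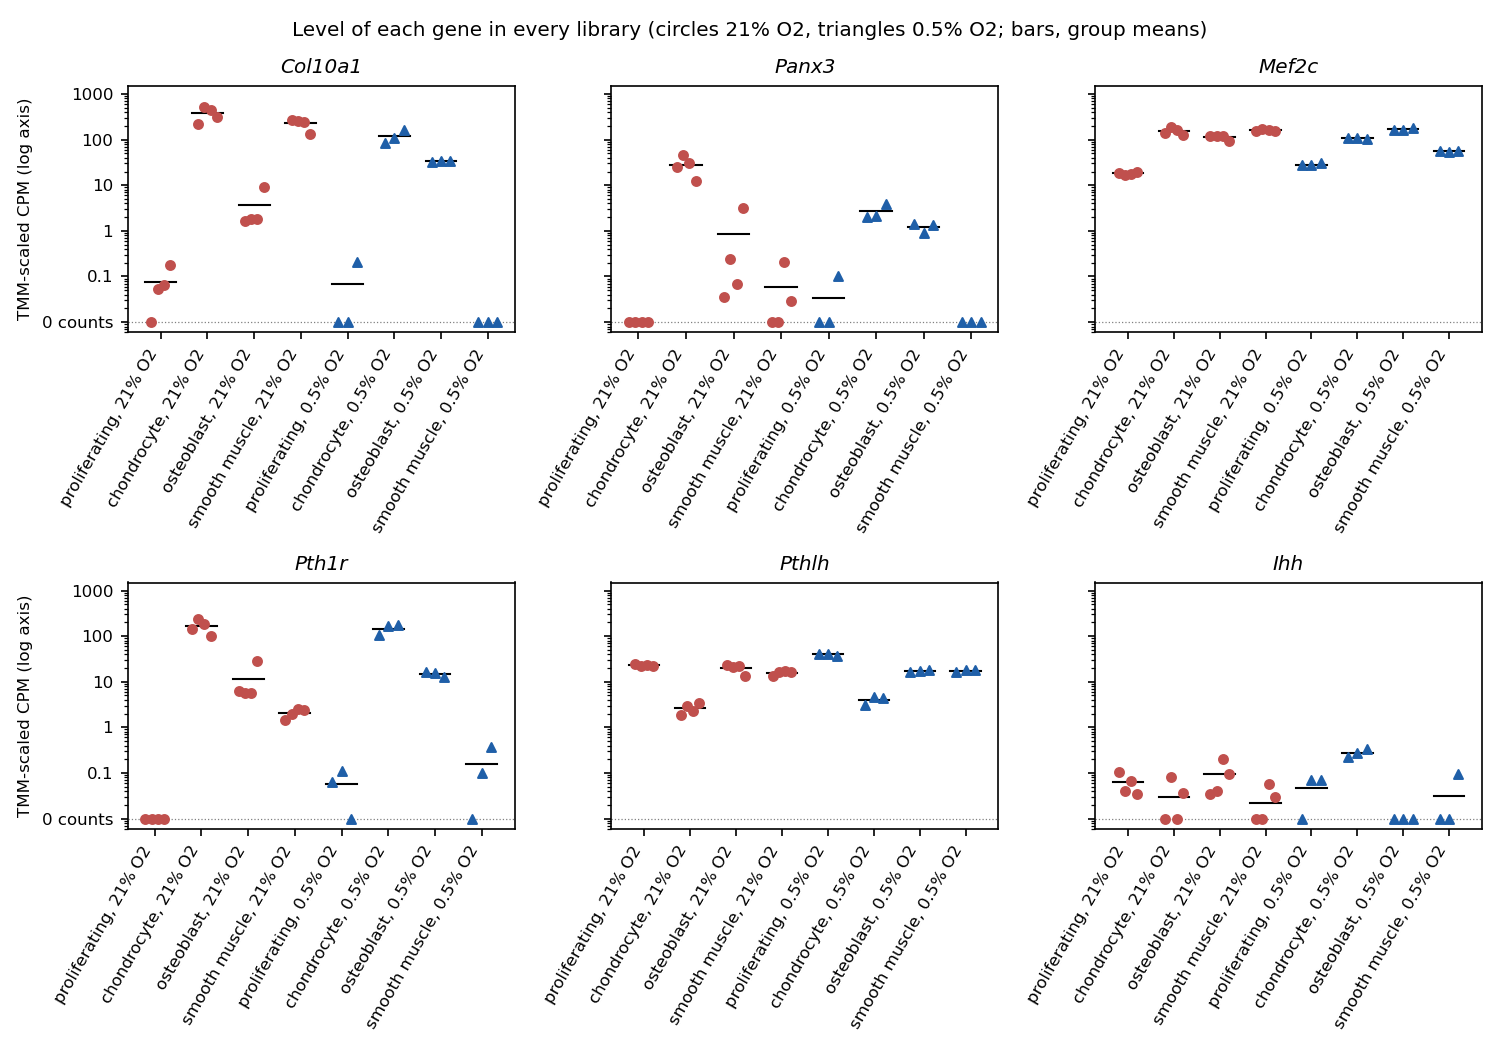
Level of each of the 6 genes in every library (points, with bars at group means; CPM after TMM scaling, log axis, libraries with no count drawn on the line marked 0) by culture and oxygen. Col10a1, Pth1r and Panx3 have their highest means in normoxic chondrocyte cultures, Pthlh is lowest in the chondrocyte cultures, Mef2c is lowest in proliferating cells, and Ihh stays under 1 CPM in every library.

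Differentiation moved nearly every gene of the set that could be tested. Col10a1 and Mef2c rose from proliferating cells to chondrocyte and osteoblast cultures at both oxygen levels, and so did Pth1r, while Pthlh fell most in chondrocyte cultures. Of the 5 genes tested between normoxic chondrocyte and proliferating cultures, 4 rose and 1 fell with edgeR's quasi-likelihood test at an adjusted p under 0.05, where 74.9% of all genes tested were called. Of 4 tested in normoxic osteoblast cultures, 3 rose (all genes 78.7%), and of 4 tested in normoxic smooth muscle cultures, 3 rose and 1 fell (79.7%). In the hypoxic cultures, 4 of 5 rose and 1 fell in chondrocyte cultures (69.5%) and likewise in osteoblast cultures (71.3%). In hypoxic smooth muscle cultures, 2 were tested and both were called, Mef2c up and Pthlh down (70.0%), with Mef2c's direction reversed by library size alone (-0.20 log2, adjusted p = 0.0752). With so many genes called, these counts do not set the 6 genes apart. Ihh was too low to pass the filter on low counts in any comparison.

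Between oxygen levels the picture differed by culture. Proliferating cells had 2 genes tested, Mef2c and Pthlh, and both were higher in 0.5% O2 (all genes 65.4% called). Hypoxic chondrocyte cultures had 3 of 5 genes lower than normoxic ones, Col10a1, Panx3 and Mef2c, where 22.2% of all genes were called. The median log2 difference of the 5 was -0.54, against -0.01 over all genes. Hypoxic osteoblast cultures had 2 of 5 genes higher, Col10a1 and Mef2c (54.3%), with a median of 0.48 against -0.03 over all genes. That median is Panx3's value, and without normoxic osteoblast replicate 4 the median was 1.32, Pth1r's value. Hypoxic smooth muscle cultures had 3 of 4 genes lower, Col10a1, Mef2c and Pth1r (75.6%). Between the skeletal cultures, 5 of 5 genes were called in normoxia, 4 of them higher in chondrocyte cultures (59.7%), and 5 of 5 in hypoxia, 3 of them higher in chondrocyte cultures (57.6%).

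Col10a1, the type X collagen of hypertrophic cartilage, was close to absent in normoxic proliferating cells, at 0, 0.0540, 0.0663 and 0.175 CPM in replicates 1 to 4. Normoxic chondrocyte cultures held 222, 522, 450 and 309 CPM. The groups were far apart, with 11 counts in all in the former and 41238 in the latter. The fitted difference was 12.50 log2 units (SE 0.52, edgeR adjusted p = 4.90e-08), and the pooled ratio, each group's summed counts over its summed scaled library sizes, was 5651-fold. Per kilobase of exon, Col10a1 was the highest of the 6 genes in normoxic chondrocyte cultures, with a level of 120 CPM per kb, ahead of Pth1r at 57.7. Normoxic smooth muscle cultures, which are not a cartilage medium, also held Col10a1 at 273, 251, 249 and 135 CPM. This range overlapped that of the chondrocyte cultures. Their mean of 227 ± 62.3 CPM (SD, n = 4) stood 11.76 log2 units (SE 0.48, edgeR adjusted p = 1.69e-07) above proliferating cells. Other skeletal genes were mixed in smooth muscle cultures. Col2a1, the main fibrillar collagen of cartilage, averaged 1.75 ± 0.237 CPM (SD, n = 4) there against 3512 ± 2343 CPM in chondrocyte cultures. Ibsp averaged 0.0346 CPM there against 1173 CPM. Sp7, a transcription factor of osteoblasts and hypertrophic cells, averaged 0.315 CPM there against 169.6 CPM. Col11a1, a minor fibrillar collagen of cartilage, was at 1004 CPM there against 5408 CPM, and Mmp13, a collagenase of the hypertrophic zone, at 13.2 CPM against 4.24 CPM.

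In osteoblast cultures Col10a1 depended on oxygen and on 1 library. Normoxic osteoblast replicates 1 to 3 held 1.64, 1.81 and 1.83 CPM and replicate 4 held 9.35 CPM. The 3 hypoxic osteoblast libraries held 32.4, 34.5 and 34.1 CPM, all above every normoxic one. The hypoxic cultures were 3.18 log2 units higher (SE 0.63, edgeR adjusted p = 0.00433), and 4.25 log2 units higher without normoxic osteoblast replicate 4 (adjusted p = 9.92e-12). Against proliferating cells, the normoxic osteoblast level was 5.78 log2 units higher (SE 0.91, edgeR adjusted p = 0.000245), or 4.68 without that replicate and 6.40 without normoxic proliferating replicate 4. Normoxic chondrocyte cultures exceeded normoxic osteoblast cultures by 6.63 log2 units (SE 0.68, edgeR adjusted p = 6.25e-05), or 7.71 without it. The hypoxic osteoblast level was 8.85 log2 units above hypoxic proliferating cells (SE 0.32, edgeR adjusted p = 2.64e-12). All 6 counts of the hypoxic proliferating group lay in replicate 3. Without it the fitted value was 12.90, which depends on the prior count because the group then has no count.

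Hypoxic chondrocyte cultures held Col10a1 at 84.7, 109 and 162 CPM, below every normoxic chondrocyte library. The mean was 118 ± 39.4 CPM (SD, n = 3) against 376 ± 136 CPM (SD, n = 4) in normoxia, and the pooled ratio was 3.08-fold lower. The fitted difference was -1.67 log2 units (SE 0.39, edgeR adjusted p = 0.0303), and it rested on single libraries. Its adjusted p was 0.0758 and 0.0570 without normoxic chondrocyte replicate 3 or 4, and 0.0922 and 0.0976 without hypoxic chondrocyte replicate 1 or 2. It was 0.0581 with no filter on low counts. The difference itself stayed between -1.96 and -1.47 log2 units when any 1 library was left out. Hypoxic smooth muscle cultures had no Col10a1 count in any of 3 libraries, with a 95% counting limit of 0.108 CPM over the group. By a floor of 3 counts over the group, 0.0878 CPM, they were at least 2584-fold below normoxic ones. That drop was called at an edgeR adjusted p of 1.69e-05. Col10a1 shares 18 exonic bases with Nt5dc1 on the opposite strand, which was at 2.50 to 14.2 CPM by library.

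Panx3, the channel protein of hypertrophic chondrocytes and osteoblasts, exceeded 1 CPM only in the 7 chondrocyte libraries and in 3 of the 7 osteoblast libraries. It had no count in 4 normoxic proliferating libraries and was at 25.6, 45.3, 30.4 and 12.6 CPM in normoxic chondrocyte cultures, at least 1583-fold higher (edgeR adjusted p = 0.000103). Hypoxic chondrocyte cultures held 2.03, 2.09 and 3.94 CPM. These were all below the normoxic libraries, by 10.3-fold in the pooled ratio, with a fitted difference of -3.40 log2 units (SE 0.53, edgeR adjusted p = 0.00543). They were still 79.5-fold above hypoxic proliferating cells, whose 3 counts, all in replicate 3, leave a 95% counting interval of 26.9 to 388 (edgeR adjusted p = 3.81e-06). Counting intervals here cover counting error only.

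In osteoblast cultures the Panx3 comparison turned on the same library as Col10a1. Normoxic osteoblast replicates 1 to 3 held 0.0349, 0.237 and 0.0678 CPM, and replicate 4 held 3.11 CPM, which is 97 of the group's 106 counts. Hypoxic osteoblast libraries held 1.43, 0.893 and 1.37 CPM, above replicates 1 to 3 and below replicate 4. With all libraries the difference was 0.48 log2 units (SE 1.19, edgeR adjusted p = 0.757), and without normoxic osteoblast replicate 4 it was 3.45 (adjusted p = 0.000154). Normoxic chondrocyte cultures exceeded normoxic osteoblast cultures by 4.96 log2 units (SE 0.95, edgeR adjusted p = 0.00211), or 7.96 without that replicate. Hypoxic chondrocyte cultures were 1.13 log2 units above hypoxic osteoblast cultures (SE 0.34, edgeR adjusted p = 0.0126). That call was lost without hypoxic chondrocyte replicate 3 (adjusted p = 0.0970) or hypoxic osteoblast replicate 2 (0.0630), and with all 28 libraries in 1 fit (0.311). Smooth muscle cultures held at most 0.203 CPM in normoxia and no count in hypoxia.

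**Figure D2:**
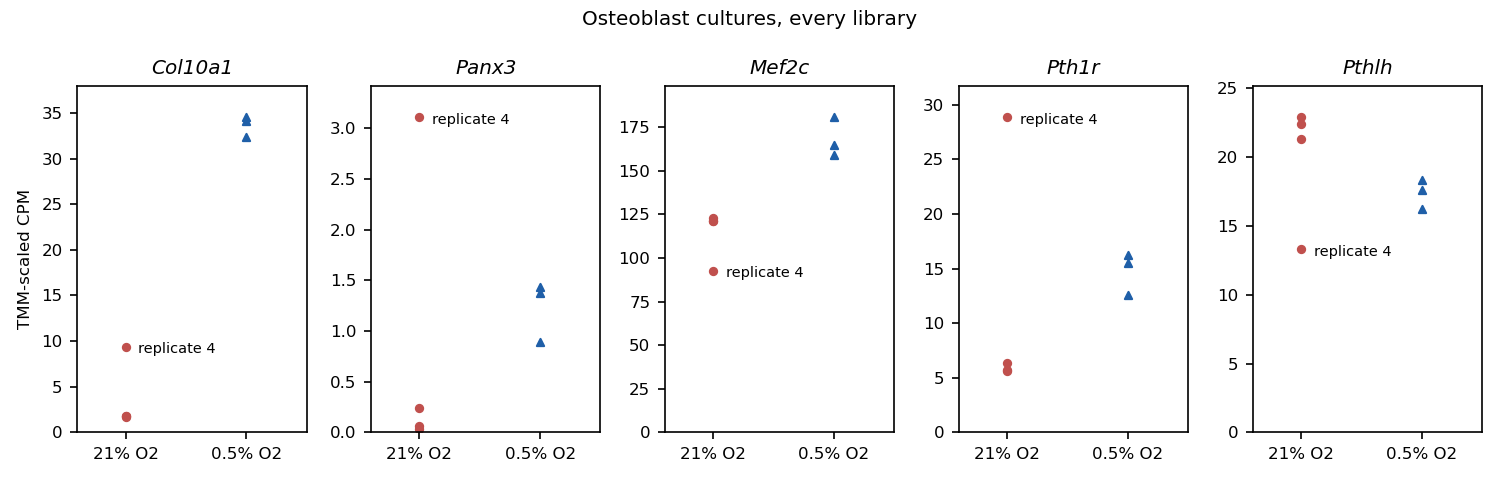
CPM after TMM scaling (linear axes from 0, 1 panel a gene) of 5 genes in each osteoblast library, normoxic (4 circles) and hypoxic (3 triangles), with normoxic replicate 4 labelled. Replicate 4 lies above the other normoxic libraries for Col10a1, Pth1r and Panx3 and below them for Pthlh and Mef2c.

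Normoxic osteoblast replicate 4 also stood apart in listed genes outside the set. Its 18 cartilage matrix genes summed to 3220 CPM against 1849 to 1881 CPM in replicates 1 to 3. Its osteoblast markers summed to 9453 CPM against 5755 to 5777 CPM, and its smooth muscle markers to 5177 CPM against 3652 to 3822 CPM. Without this library, 5 of 5 members differed between hypoxic and normoxic osteoblast cultures in place of 2 of 5. The share of all genes called rose as well, to 65.6% in place of 54.3%. With all libraries Pth1r was at 0.33 log2 units (edgeR adjusted p = 0.681) and Pthlh at -0.20 (0.368). Without this library both passed as well, at 1.32 log2 units (edgeR adjusted p = 1.70e-06) and -0.35 (0.00407). The part of this library's other differences in these results was not tested.

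Mef2c, the transcription factor that promotes hypertrophy and is also active in muscle and vessels, was expressed in every library. It was lowest in normoxic proliferating cells, at 19.0, 16.9, 18.1 and 19.8 CPM. It reached 141, 186, 164 and 128 CPM in normoxic chondrocyte cultures, and 156, 169, 159.7 and 155 CPM in normoxic smooth muscle cultures. These ranges overlapped each other and lay far above proliferating cells. The rise was 3.15 log2 units for chondrocyte cultures (SE 0.11, edgeR adjusted p = 5.32e-10) and 3.17 for smooth muscle (SE 0.07, adjusted p = 3.25e-15). Normoxic osteoblast cultures rose by 2.69 log2 units (SE 0.11, edgeR adjusted p = 1.58e-08).

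Low oxygen moved Mef2c in opposite directions in the skeletal cultures. Hypoxic osteoblast cultures held 165, 159 and 180.5 CPM, above the normoxic 121, 121, 123 and 92.5 CPM, a difference of 0.56 log2 units (SE 0.11, edgeR adjusted p = 0.00242). Hypoxic chondrocyte cultures held 110, 108 and 104 CPM, below all normoxic ones, a difference of -0.54 (SE 0.11, adjusted p = 0.00601). The difference between these responses was 1.08 log2 units (SE 0.17, edgeR adjusted p = 0.000138). In proliferating cells Mef2c was 0.69 log2 units higher in hypoxia (SE 0.08, edgeR adjusted p = 4.93e-06). The chondrocyte rise over proliferating cells was therefore smaller in hypoxia, with a difference of -1.21 log2 units (SE 0.14, edgeR adjusted p = 3.16e-06). In hypoxic smooth muscle cultures Mef2c was at 56.2, 53.6 and 55.6 CPM, all below the normoxic libraries, with a difference of -1.47 log2 units (SE 0.08, edgeR adjusted p = 2.31e-10). Normoxic chondrocyte cultures exceeded normoxic osteoblast cultures by 0.42 log2 units (SE 0.13, edgeR adjusted p = 0.0184), a call that was lost when scaled by library size alone (0.26, adjusted p = 0.0900).

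Pth1r, the receptor for PTHrP, had no count in 4 normoxic proliferating libraries and 147, 240, 187 and 102 CPM in normoxic chondrocyte cultures. The ratio was at least 9421-fold (edgeR adjusted p = 2.91e-05). Unlike Col10a1 and Panx3, Pth1r was not called as changed by oxygen in chondrocyte cultures: hypoxic libraries held 104, 164 and 174 CPM, inside the normoxic range, and the difference was -0.21 log2 units (SE 0.33, edgeR adjusted p = 0.726). Between those genes and Pth1r no test of the difference was run. Normoxic smooth muscle cultures held only 1.44 to 2.55 CPM, although their Col10a1 overlapped that of chondrocyte cultures. Per kilobase of exon, the Pth1r level there was 0.720 CPM per kb against 72.5 for Col10a1. Still, Pth1r was at least 120-fold above proliferating cells there (edgeR adjusted p = 3.21e-08). Hypoxic smooth muscle libraries held 0, 0.0997 and 0.370 CPM, below all normoxic ones, with a difference of -3.73 log2 units (SE 0.68, edgeR adjusted p = 0.000163). That value rests on 5 counts in the hypoxic group, and was -3.07 without its replicate 1 and -5.43 without its replicate 3. Osteoblast cultures lay between: hypoxic ones at 16.3, 15.5 and 12.6 CPM, and normoxic ones at 6.32, 5.68, 5.66 and, in replicate 4, 28.8 CPM, so the groups overlapped. Chondrocyte cultures exceeded osteoblast cultures by 3.83 log2 units in normoxia (SE 0.62, edgeR adjusted p = 0.000898) and 3.32 in hypoxia (SE 0.21, adjusted p = 1.42e-06). The normoxic value was 4.82 without normoxic osteoblast replicate 4. Pth1r shares 95 exonic bases with Myl3 on the opposite strand, which was at most at 0.805 CPM in any library.

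Pthlh, which encodes the ligand PTHrP, had its highest means in proliferating and its lowest in chondrocyte cultures, where its receptor had its lowest and highest. It was highest in proliferating cells, at 40.7, 41.6 and 36.6 CPM in hypoxia and 25.0, 22.7, 23.7 and 22.5 CPM in normoxia. The hypoxic libraries were all above the normoxic ones, by 0.81 log2 units (SE 0.07, edgeR adjusted p = 2.67e-07). Chondrocyte cultures were lowest, at 1.82, 2.87, 2.28 and 3.46 CPM in normoxia and 3.06, 4.53 and 4.37 CPM in hypoxia. Their ranges overlapped each other and lay below every other library of the series. The difference from proliferating cells was -3.11 log2 units in normoxia (SE 0.16, edgeR adjusted p = 4.95e-09) and -3.33 in hypoxia (SE 0.14, adjusted p = 1.83e-10). The oxygen difference within chondrocyte cultures was 0.61 log2 units (SE 0.25, edgeR adjusted p = 0.106), and without normoxic chondrocyte replicate 4 it passed (adjusted p = 0.0432).

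In normoxic osteoblast cultures Pthlh stayed near the proliferating level, at 22.9, 21.3, 22.4 and 13.3 CPM (log2 difference -0.18, SE 0.15, edgeR adjusted p = 0.296). Hypoxic osteoblast cultures, at 16.2, 17.6 and 18.3 CPM, lay below hypoxic proliferating cells, with a difference of -1.19 log2 units (SE 0.10, edgeR adjusted p = 3.07e-08). The osteoblast change thus differed by oxygen, by -0.97 log2 units (SE 0.20, edgeR adjusted p = 0.000645). Hypoxic and normoxic osteoblast cultures themselves overlapped and differed by -0.20 log2 units (edgeR adjusted p = 0.368). The proliferating cells they were set against differed by 0.81. Normoxic smooth muscle cultures held 13.6 to 16.9 CPM, below proliferating cells, with a difference of -0.53 log2 units (SE 0.08, edgeR adjusted p = 2.96e-05). Between hypoxic and normoxic smooth muscle the direction depended on scaling: 0.23 log2 units by TMM (SE 0.13, edgeR adjusted p = 0.131) and -1.14 by library size alone (adjusted p = 1.30e-06). Per kilobase of exon, Pthlh was the highest of the 6 genes in normoxic proliferating cells, with a level of 14.5 CPM per kb against 1.17 for Mef2c.

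Ihh, the hedgehog ligand of prehypertrophic chondrocytes, was near its detection limit everywhere. Normoxic chondrocyte cultures, where Col10a1 was highest, had 0, 2, 0 and 1 Ihh counts. Hypoxic chondrocyte libraries had 7, 7 and 10 counts, or 0.225, 0.276 and 0.329 CPM, the only group above all others without overlap. Their pooled ratio to normoxic chondrocyte cultures was 10.4-fold, with a 95% counting interval of 3.15 to 53.9, which leaves out spread between libraries. The gene did not pass the filter on low counts, so the main fits held no test of it. Its values in the fits without that filter are not given here. Hypoxic osteoblast cultures had no Ihh count in 3 libraries, with a 95% counting limit of 0.0443 CPM over the group. Normoxic osteoblast cultures had 11 counts, 6 of them in replicate 3, with a 95% counting interval of 0.0479 to 0.172 CPM. Their ratio to a floor of 3 counts, 0.0360 CPM over the hypoxic group, was 2.66-fold. That ratio leaves out the counting error of the 11 counts. In the other groups the mean was 0.0218 to 0.0623 CPM.

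**Figure D3:**
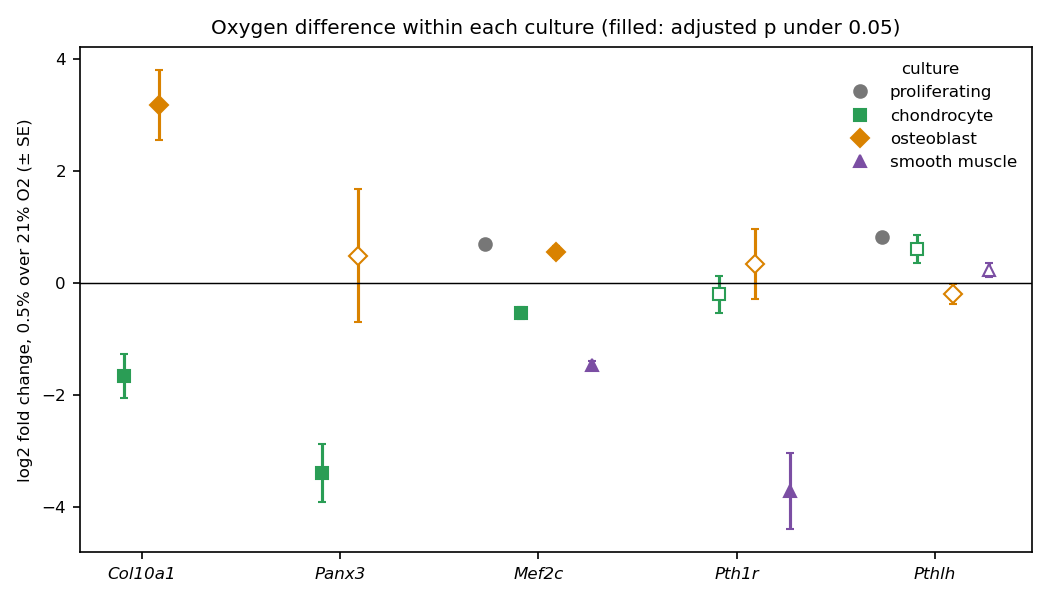
Log2 difference between 0.5% and 21% O2 (points, with bars of ± 1 SE from edgeR; filled where the adjusted p is under 0.05) for each tested gene in each culture. Col10a1 lies at -1.67 in chondrocyte and 3.18 in osteoblast cultures, and Pthlh in smooth muscle cultures at 0.23, which turns to -1.14 by library size alone; Col10a1 in smooth muscle is left out because hypoxic cultures had no count.

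The oxygen responses of osteoblast and chondrocyte cultures were compared in 1 fit. The response of Col10a1 was 4.84 log2 units higher in osteoblast cultures (SE 0.78, edgeR adjusted p = 0.000650), or 5.90 without normoxic osteoblast replicate 4. In all, 4 of 5 genes differed, 3 of them higher and Pthlh lower, where 37.8% of all genes were called. For Panx3 the difference was 3.85 (SE 1.29, edgeR adjusted p = 0.0362) and for Pthlh -0.82 (SE 0.31, adjusted p = 0.0468). These were the weakest calls. When each of the 14 libraries was left out in turn, the Panx3 call held in 5 cases: without normoxic chondrocyte replicate 1 or 4, normoxic osteoblast replicate 1 or 4, or hypoxic chondrocyte replicate 3. The Pthlh call held in 3: without normoxic chondrocyte replicate 4, normoxic osteoblast replicate 4 or hypoxic chondrocyte replicate 1. Without normoxic osteoblast replicate 4, all 5 genes were called, where 44.5% of all genes were. Panx3 was then at 6.83 log2 units (edgeR adjusted p = 0.000189) and Pth1r at 1.51 (0.0172). The change from proliferating to chondrocyte cultures differed by oxygen for 1 of 5 genes, Mef2c (all genes 43.5%), and the change to osteoblast cultures for 1 of 5, Pthlh (54.2%).

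Other genes of cartilage and hypertrophy gave context for the set. The lists hold 18 cartilage matrix genes, 16 regulators of hypertrophy and 13 genes of terminal matrix and mineralization. In hypoxic against normoxic chondrocyte cultures, 12 of 14 tested cartilage genes fell and none rose, with a median of -3.10 log2 units against -0.01 over all genes. Col2a1 fell by 3.68 log2 units (SE 0.76, edgeR adjusted p = 0.0221). Of the hypertrophy regulators 3 of 14 fell and none rose, close to the 22.2% of all genes called: Dlx5 and Dlx6, homeobox factors of skeletal differentiation, at -2.21 and -3.01 log2 units, and Mef2d, a relative of Mef2c, at -0.49. Runx2, the factor that drives Col10a1 in hypertrophic cells, was at 88.6 ± 6.12 CPM (SD, n = 4) in normoxic and 82.8 ± 6.80 CPM (SD, n = 3) in hypoxic chondrocyte cultures (log2 difference -0.11, edgeR adjusted p = 0.371). Of the terminal matrix genes 5 of 11 fell and 2 rose. Alpl, the phosphatase needed for mineralization, fell by 1.57 log2 units (edgeR adjusted p = 0.0445), and Mmp13 fell by 1.51 (0.0103). Vegfa, a vessel growth factor that responds to low oxygen, rose by 1.11 and Tgm2, a crosslinking enzyme, by 1.12.

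In osteoblast cultures the terminal matrix genes moved in both directions. In hypoxia 6 of 12 tested rose and 4 fell, where 54.3% of all genes were called, with a median of 2.45 log2 units against -0.03 over all genes. Ibsp rose by 5.89 log2 units, Mmp13 by 3.36, Vegfa by 2.88 and Spp1, osteopontin, by 2.21, while Enpp1, which makes the mineralization inhibitor pyrophosphate, fell by 0.99. Mmp13 averaged 97.7 ± 9.25 CPM (SD, n = 3) in hypoxic against 9.51 ± 0.488 CPM (SD, n = 4) in normoxic osteoblast cultures. Alpl averaged 74.6 CPM in hypoxia and 11.4 CPM in normoxia, where replicate 4 alone held 40.0 CPM (log2 difference 2.69, SE 1.25, edgeR adjusted p = 0.117). Of 13 tested hypertrophy regulators 4 rose, Runx2 (1.14), Runx3 (1.61), Sik3 (1.27) and Mef2a (0.65), and Zfp521 fell (-1.21). Of 11 tested cartilage genes 1 rose and 1 fell. Without normoxic osteoblast replicate 4, 6 of 11 cartilage genes rose and 1 fell, and 7 of 12 regulators rose and 3 fell. The share of all genes called was then 65.6%.

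**Figure D4:**
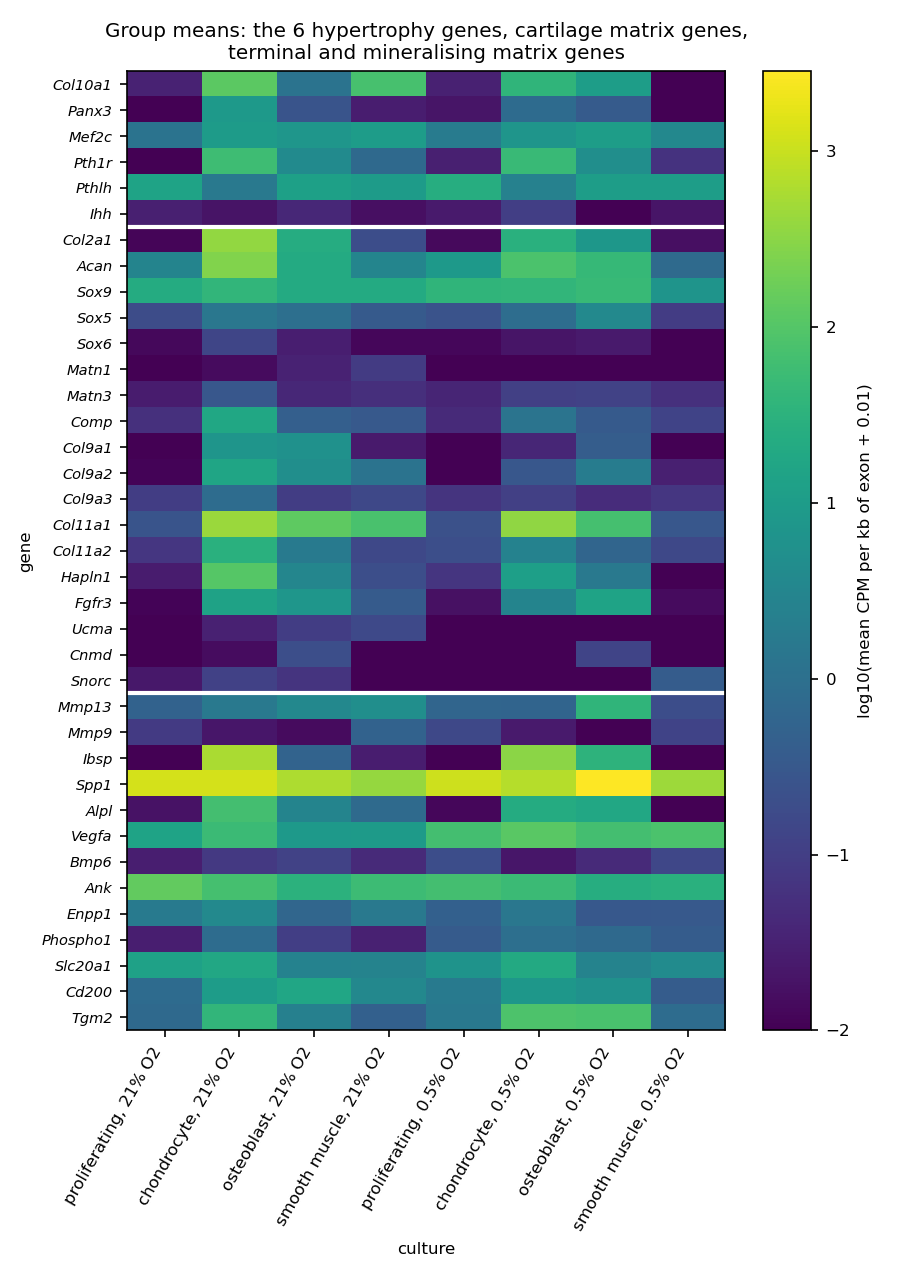
Mean level per group of the 6 genes, 18 cartilage matrix genes and 13 terminal matrix genes (colour, log10 of mean CPM per kilobase of exon + 0.01). Normoxic smooth muscle cultures carry Col10a1 at 72.5 CPM per kb but Col2a1 at 0.189 and Ibsp at 0.0167.

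The genes that act downstream of the ligands were split. Of 14 genes of PTHrP receptor signalling, 2 rose and 4 fell in hypoxic chondrocyte cultures, where 22.2% of all genes were called. Ramp2, a receptor accessory protein, fell by 5.16 log2 units (SE 0.66, edgeR adjusted p = 0.000239), and Arrb1, beta-arrestin 1, rose by 1.92 (SE 0.08, adjusted p = 6.03e-08). In hypoxic osteoblast cultures, where 54.3% of all genes were called, 3 rose and 6 fell, again with Arrb1 up (1.80) and Ramp2 down (-2.39), and with Pde4b, a cAMP phosphodiesterase, down (-2.82). Of 12 tested hedgehog pathway genes, 1 rose and 5 fell in hypoxic chondrocyte cultures, and 1 rose and 7 fell in hypoxic osteoblast cultures. The osteoblast counts of both lists are near the share over all genes. Gli1, a target gene of hedgehog signalling, was at -1.63 and -3.15 log2 units, although its mean never exceeded 1.85 CPM in any group. Ptch1, the hedgehog receptor and also a target, rose by 0.51 log2 units in hypoxic chondrocyte cultures. Any link of Ihh to Gli1 or Ptch1 was not tested. Boc, a hedgehog co-receptor, was at -1.51 and -4.20 log2 units. In these lists no gene was called in the opposite direction between oxygen levels in chondrocyte or osteoblast cultures when scaled by library size alone or by DESeq2 size factors. The related ligands Pth, Pth2 and Shh had no count in any library.

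**Figure D5:**
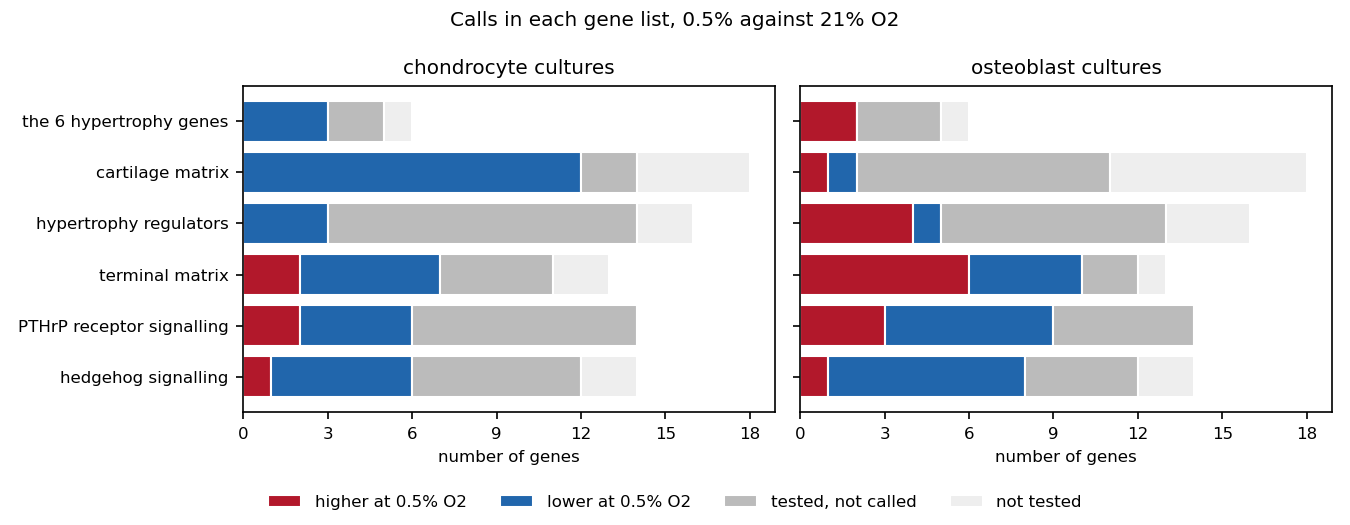
Number of tested genes per list that were higher, lower or not called (edgeR adjusted p under 0.05) between 0.5% and 21% O2 in chondrocyte and osteoblast cultures. In chondrocyte cultures 12 of 14 cartilage matrix genes are lower, and in osteoblast cultures 6 of 12 terminal matrix genes are higher.

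The genes whose log level followed each member most closely over the 28 libraries were ranked by Pearson's r among 13482 genes; the libraries share their culture groups, so r describes likeness of pattern only. For Col10a1 they were Lrrc17 (0.980), Prss35 (0.950) and Palm2 (0.940), and for Panx3 Gldn (0.970), Dlx6 (0.970) and Colgalt2 (0.966). For Pth1r they included Acvr1 (0.983) and Fkbp10 (0.981). For Mef2c they were Lama4 (0.969), Atp6v0d1 (0.969) and Cp (0.967), and for Pthlh Met (0.966), Kcnab1 (0.949) and Gstm1 (0.941). Dlx6, nearest to Panx3 together with Gldn, is also 1 of the regulators that fell in hypoxic chondrocyte cultures. Panx3 fell in those same libraries, so this is part of the same likeness. Most of these ranks depended on the measure. By Spearman's rho over the same libraries Gldn ranked 544 and Dlx6 87 for Panx3, and Atp6v0d1 262 for Mef2c. By library size alone Acvr1 and Fkbp10 ranked 89 and 97 for Pth1r. Lrrc17 ranked 1 or 2 for Col10a1 under each measure tried. Ihh was below the minimum for this ranking.

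The authors' deposited table of each comparison gives the same directions for the main oxygen differences. In the authors' deposited table Col10a1 has a log2 fold change of -1.48 in chondrocyte, 2.88 in osteoblast and -15.25 in smooth muscle cultures for hypoxic against normoxic. For Panx3 the authors' deposited table gives -3.25 in chondrocyte and 0.11 in osteoblast cultures. For Ihh, which did not pass the filter on low counts here, the authors' deposited table gives 1.85 in chondrocyte cultures.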

How the data were processed

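The deposited table holds raw counts per gene for 28 libraries, whole numbers with no normalization. The submitters' processing notes name HISAT2 2.0.5, StringTie 1.3.3b, featureCounts 1.5.0-p3 and mm10, without their roles. The annotation and the use of strand are not given in the sources used here, although the labels name a stranded kit. Reads from the opposite strand could therefore enter a gene that overlaps another. The authors' deposited comparison tables give log2 fold changes, which were only copied, and their 70 per-library columns were not used. Symbols were matched for 54314 of 54429 identifiers.

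The 6 genes and the gene lists were chosen with earlier results of these data known. Samples were grouped by the labels. Each of 12 pairs of groups was fitted with edgeR 4.0.16 (limma 3.58.1, statmod 1.5.0, R 4.3.3): TMM scaling, filterByExpr (minimum count 10, total 15), robust quasi-likelihood F-test, Benjamini-Hochberg adjustment over all genes tested and a threshold of 0.05. The 3 interaction terms were fitted the same way on 4 groups each. An SE is the log2 fold change divided by the root of F. Levels are CPM with TMM factors over all 28 libraries. Ratios pool each group's counts over its scaled library sizes, so they differ from ratios of mean CPM. Where a group had no count, they use a floor of 3 counts over the group, to which the words at least refer. Where it had 1 to 3, a 95% counting interval is given. Fitted fold changes against a group without counts depend on the prior count and are printed only where an alternative turned their direction. Likeness used log2(CPM + 0.5) of genes with a mean of at least 10 counts in 1 group, and the 3 highest r are named, except 1 gene that is not reported here. The genes named are the members, these most alike genes and genes of the lists; which examples of a list are named was chosen after their values were seen. Promoter sequences are RefSeq's, GRCm38.p6.

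Alternatives were library size alone, DESeq2 size factors, no filter, DESeq2 1.42.0, limma-voom, all 28 libraries in 1 fit, a replicate block and leaving out each library. Normoxic replicates 1 to 3 alone was added after seeing the data. On simulated counts for normoxic chondrocyte against proliferating cultures (14370 genes) the fit found 98.1% of 106 genes changed 2-fold and 100% of 93 changed 4-fold. For hypoxic against normoxic chondrocyte cultures (14094 genes) it found 97.6% of 82 and 100% of 118, and for hypoxic chondrocyte against proliferating cultures (14303 genes) 92.5% of 107 and 100% of 93. The simulation gave every gene the same low dispersion and changed only genes above a set mean count. It therefore does not measure recovery for genes whose libraries spread more, such as Col10a1 and Panx3 in normoxic chondrocyte cultures. With 19.9 M to 64.7 M counts a library (M, 1000000), 3 counts over a group correspond to 0.0177 to 0.0878 CPM.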

Additional observations from a re-analysis of the deposited data

Results flagged for a closer look

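Of 22 sets of 4 libraries that could be checked for a library far from the rest, 7 had one. The cutoff is made for about 1 in 20 independent, normally spread sets. These sets share libraries and some hold few counts, so the 7 are not measured against chance. Normoxic osteoblast replicate 4 accounts for 5 of the 7. It was the highest for Col10a1 (9.35 CPM), Pth1r (28.8 CPM) and Panx3 (3.11 CPM) and the lowest for Pthlh (13.3 CPM) and Mef2c (92.5 CPM). The others were Col10a1 in normoxic smooth muscle replicate 4, the lowest at 134.8 CPM, and Panx3 in normoxic smooth muscle replicate 3, the highest at 0.203 CPM.

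Effects that differed between groups by an edgeR interaction term were the chondrocyte change of Mef2c by oxygen (-1.21 log2 units), the osteoblast change of Pthlh by oxygen (-0.97), and the oxygen response of osteoblast against chondrocyte cultures for Col10a1 (4.84), Mef2c (1.08), Panx3 (3.85) and Pthlh (-0.82).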

How the results depend on the processing

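Among the log2 differences of single members under the alternatives, 1007 kept their direction and side of the threshold, 33 lost and 26 gained a call, and 9 turned. Scaled by library size alone, the median of all genes moved by -1.37 log2 units for hypoxic against normoxic smooth muscle and by -1.28 against hypoxic proliferating cells, and the share of higher genes among calls went from 46.8% to 15.6% and from 48.3% to 15.0%. That share went from 50.3% to 34.7% for normoxic and from 50.2% to 31.8% for hypoxic chondrocyte against proliferating cultures. It went from 50.8% to 38.2% for hypoxic osteoblast against proliferating cultures and from 47.9% to 34.3% between normoxic chondrocyte and osteoblast cultures. Between oxygen levels it went from 46.9% to 31.8% in chondrocyte and from 49.6% to 36.9% in osteoblast cultures. By library size 1 member was called in hypoxic smooth muscle against proliferating cells (all genes 83.0%). Mef2c turned there (-0.20), and Pthlh turned between smooth muscle cultures (-1.14).

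Same-numbered libraries did not deviate together (r from -0.177 to 0.0814), so the samples were taken as unpaired. The replicate block leaves normoxic replicate 4 without a partner. With it, 5 members were called between oxygen levels in chondrocyte cultures (all genes 19.7%) and 5 in osteoblast cultures (63.8%). It called 3 each for the chondrocyte (44.1%) and osteoblast (55.0%) changes by oxygen. DESeq2 called 3 for the chondrocyte change (46.2%). It gave no adjusted p for Col10a1 and Pth1r in normoxic osteoblast against proliferating cultures, nor for Panx3 in both osteoblast oxygen tests. With normoxic replicates 1 to 3 alone, 5 were called between osteoblast cultures (65.6%) and 3 for the osteoblast change (62.3%). Pthlh's chondrocyte change by oxygen was then 0.00118, and Panx3's osteoblast change by oxygen 0.13, against 0.91 by limma-voom.

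Leaving out 1 library at a time gave 2 to 5 members called between osteoblast cultures, 1 to 3 for the osteoblast change and 2 to 5 for the oxygen response of osteoblast against chondrocyte cultures. The upper ends came without normoxic osteoblast replicate 4, where 65.6%, 60.5% and 44.5% of all genes were called, in that order. Between chondrocyte cultures 2091 (without hypoxic replicate 3) to 3359 genes were called, and Pth1r ranged from -0.38 to 0.015 (the latter without normoxic replicate 2). The change by oxygen ranged from -2.39 to 2.48 for Col10a1 in chondrocyte and from -3.39 to 0.50 for Panx3 in osteoblast cultures, the upper ends without hypoxic proliferating replicate 3, which held all 6 Col10a1 and all 3 Panx3 counts of its group. The other causes were not tested. For Ihh, depth limits every comparison.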
